A study of Mus musculus with 4 samples.

Results

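Polycomb repressive complex 2 (PRC2) is the enzyme complex that methylates lysine 27 of histone H3, and 10 genes for its subunits were followed across 4 mouse tumours. The genes were taken by symbol from a list of subunits and were found among 46946 genes of the count table. This list and the other gene lists used below were chosen with earlier results of these data known. They are the catalytic paralogs Ezh2 and Ezh1, the core genes Eed, Suz12 and Rbbp7, the accessory genes Mtf2, Phf1 and Phf19 of the form called PRC2.1, and the accessory genes Jarid2 and Aebp2 of the form called PRC2.2. All 10 were above the low-count filter in the 4 tumours, with 172 to 4000 reads per gene and library. For the lowest of these counts, Phf1 in T8, the exact 95% Poisson interval was 147 to 200 reads, which covers counting error only.

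The tumours form a single group called PDGFB K27M. By their labels they are untreated, have the genotype K27M and arose from PDGF K27M Neural Stem Cells. K27M replaces lysine 27 of histone H3 with methionine, and the mutant histone inhibits PRC2. The series text names another origin, DIPG cells (a brainstem glioma of children) that express H3.3 with the mutation and were injected. How the mutation and PDGF were delivered, and the clone, strain, age and sex, were left unstated by the labels. No normal brain, cultured line or tumour without the mutation was analysed here, so the levels of the genes and their spread between tumours are described. Table names are kept for the tumours, and their values always come in the order T14, T10, T8 and TUN.

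PRC2 needs EZH2 or EZH1 for catalysis, and EED and SUZ12 hold the complex together and are needed for activity. EZH2 is known for its expression in dividing cells and EZH1 for its expression in resting and mature cells. MTF2, PHF1 and PHF19 are the Polycomb-like proteins, which bring the complex to CpG-rich DNA and to marked chromatin, whereas JARID2 and AEBP2 assemble into a separate form of the complex. The title of the series names EZH2 as a possible target in H3K27M gliomas, which is the reason to ask how the subunits compare in these tumours.

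The sequences before the starts of 5 of the genes are printed because 4 of them (Ezh2, Ezh1, Phf19 and Phf1) differed most between tumours, and because Phf19 and Suz12 held a match to an E2F motif. E2F factors switch on genes for DNA replication. Each line gives the 250 bases before a RefSeq gene start in GRCm38.p6, 5′ to 3′ on the strand of the gene, and capitals mark the E2F match. The windows are chr6:47595031-47595280 (minus strand) for Ezh2, chr11:101226464-101226713 (minus strand) for Ezh1, chr2:34913977-34914226 (minus strand) for Phf19, chr17:26932877-26933126 (plus strand) for Phf1 and chr11:79992856-79993105 (plus strand) for Suz12. In the annotation of the count table, Ezh2 starts farther upstream, at chr6:47595341, and Phf19 starts at chr2:34914026. By that annotation the Ezh2 window lies wholly inside the gene and the Phf19 window partly so.
Ezh2: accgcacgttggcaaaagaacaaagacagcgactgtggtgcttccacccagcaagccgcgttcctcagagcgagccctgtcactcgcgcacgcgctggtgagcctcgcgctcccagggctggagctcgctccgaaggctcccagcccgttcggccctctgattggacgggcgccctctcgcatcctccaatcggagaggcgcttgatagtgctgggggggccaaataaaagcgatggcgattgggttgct
Ezh1: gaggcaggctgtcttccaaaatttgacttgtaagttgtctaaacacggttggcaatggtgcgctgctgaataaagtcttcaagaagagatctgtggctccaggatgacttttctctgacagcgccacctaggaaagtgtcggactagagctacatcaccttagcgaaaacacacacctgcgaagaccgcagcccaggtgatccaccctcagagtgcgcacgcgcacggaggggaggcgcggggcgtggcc
Phf19: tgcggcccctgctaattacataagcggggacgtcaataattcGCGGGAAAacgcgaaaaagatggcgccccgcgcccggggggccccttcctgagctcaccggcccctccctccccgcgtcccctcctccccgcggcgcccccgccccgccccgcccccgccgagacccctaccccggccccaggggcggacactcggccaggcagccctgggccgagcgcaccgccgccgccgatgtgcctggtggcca
Phf1: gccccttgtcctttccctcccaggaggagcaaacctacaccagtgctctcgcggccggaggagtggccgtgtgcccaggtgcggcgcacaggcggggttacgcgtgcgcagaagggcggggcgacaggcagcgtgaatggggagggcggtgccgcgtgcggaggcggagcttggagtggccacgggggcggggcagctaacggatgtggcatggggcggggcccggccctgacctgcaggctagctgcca
Suz12: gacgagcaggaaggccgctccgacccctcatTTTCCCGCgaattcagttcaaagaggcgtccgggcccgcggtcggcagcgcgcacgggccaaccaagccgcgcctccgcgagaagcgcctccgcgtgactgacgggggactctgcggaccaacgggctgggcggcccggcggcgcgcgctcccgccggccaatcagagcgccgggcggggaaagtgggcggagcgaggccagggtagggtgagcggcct

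Such windows were found for all 10 genes, 14 in all since Jarid2, Mtf2 and Aebp2 have several starts. The E2F search took TTTGGCGC, TTTCCCGC, TTTGCCGC and TTTCGCGC on both strands. It matched 2 of the 14 windows, at 219 bases before the start of Suz12 and, on the other strand, at 208 bases before the start of Phf19. A match was held by 1.86% of all 32851 windows. The cell cycle element TTTGAA was matched in 4 of the 14 windows, in Eed (2 matches), Suz12, 1 window of Mtf2 and 1 of Aebp2, against 16% of all windows, and no match overlapped another. The windows were rich in CpG, with 11 of the 14 above the median of 6 CpG of all windows and a range of 1 to 37. Suz12 had the most, at 37, while Ezh2 and Phf1 had 23 each, Phf19 had 31 and Ezh1 had 14.

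Among the enzymes, Ezh2 (ENSMUSG00000029687.16, mm10 chr6:47530139-47595341, minus strand) stood at 6.67, 7.12, 13.1 and 15.1 RPKM, which is the read count scaled to exon length and library size. T8 and TUN were thus above T14 and T10, a span of 2.26-fold. Ezh1 (ENSMUSG00000006920.14, chr11:101191115-101226463, minus strand) was instead high in T14 and T10, at 8.24, 5.53, 2.33 and 2.51 RPKM, a span of 3.53-fold. In bulk tissue, fewer cells of a type and less RNA per cell cannot be told apart.

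Added together, the transcripts of both enzymes varied less than either, at 14.9, 12.7, 15.4 and 17.6 RPKM, a span of 1.39-fold. What differed was the make-up of that sum. Ezh2 supplied 44.7%, 56.3%, 84.8% and 85.7% of it, so both genes were near parity in T14 and T10 and Ezh2 led in T8 and TUN. The length of the principal transcript was also used in place of all merged exons, a setting chosen after the data were seen. The share of Ezh2 was then 52.2% in T14, 63.5% in T10 and 89.0% in TUN. Which paralog led in T14, and how near T10 was to parity, thus depend on the length used. The log2 ratio of Ezh2 to Ezh1 averaged 1.26 ± 1.45 (SD, n = 4), and its exact two-sided sign-flip permutation p was 0.25 (0.45 adjusted over 9 ratios). With 4 tumours this test cannot go below 0.125, so no ratio given here can be called. Without TUN the mean was 0.83.

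**Figure D1:**
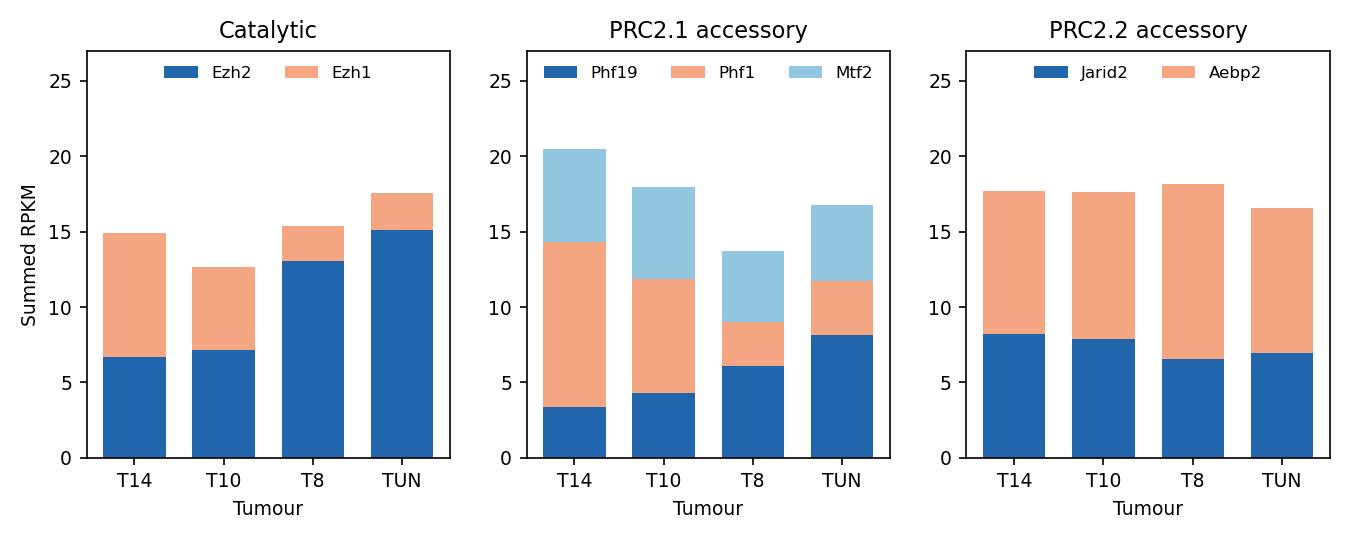
Stacked bars give the RPKM of each subunit gene in the 4 tumours, summed within the catalytic pair, the PRC2.1 accessory genes and the PRC2.2 accessory genes. The Ezh2 part of the catalytic bar runs from 44.7% in T14 to 85.7% in TUN while the bar itself spans 1.39-fold, and Phf1 and Phf19 change places within the PRC2.1 bar.

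Rbbp7 (ENSMUSG00000031353.13, chrX:162760402-162779092, plus strand), for a histone-binding WD-repeat protein that PRC2 shares with other chromatin complexes, was the most abundant member in every tumour. It stood at 46.0, 40.9, 57.6 and 60.7 RPKM, with a mean above that of 93.0% of the 14266 genes tested. A processed pseudogene, Gm6382, has 97.1% identity to it over 942 bases but held 1 to 7 reads per library. How reads that match both were counted is unstated, so the level of Rbbp7 is uncertain to that extent.

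Suz12 (ENSMUSG00000017548.15, chr11:79993106-80034123, plus strand), the scaffold of the complex, was second in all 4 tumours, at 18.4, 18.0, 22.9 and 22.5 RPKM. Eed (ENSMUSG00000030619.8, chr7:89954656-89980983, minus strand), whose protein binds trimethylated lysine 27, stood at 11.8, 9.18, 14.1 and 15.6 RPKM. Eed and Rbbp7 each overlap another gene on the opposite strand, over 10.6% and 5.98% of their exon length, by genes that held 5 to 14 reads (E230029C05Rik) and 271 to 353 reads (Txlng) per library. Eed was below Suz12 by 0.71 ± 0.19 log2 units (SD, n = 4), in 4 of 4 tumours, with an exact sign-flip permutation p of 0.125 (0.281 adjusted over 9 ratios). All 3 core genes had T8 and TUN as their highest tumours, as Ezh2 did, but their spans of 1.27-fold (Suz12), 1.48-fold (Rbbp7) and 1.70-fold (Eed) were smaller than that of Ezh2.

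The summed catalytic RPKM was set against the summed RPKM of Eed and Suz12, which was 30.1, 27.2, 37.1 and 38.1. Their log2 ratio was -1.01, -1.10, -1.26 and -1.11, a mean of -1.12 ± 0.11 (SD, n = 4; exact sign-flip permutation p = 0.125, 0.281 adjusted). With the principal transcript lengths the ratio was -0.14 ± 0.07, and in CPM it was -0.30 ± 0.13. The mean of log2 values over the subunits gave -1.31 ± 0.37, a wider spread than the sums gave, and all 3 were below 0 in 4 of 4 tumours.

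Among the Polycomb-like genes of PRC2.1, Phf1 (ENSMUSG00000024193.7, chr17:26933127-26937890, plus strand) had the widest span of all members, 3.68-fold. It stood at 10.9, 7.56, 2.97 and 3.62 RPKM, so T14 and T10 were the high tumours. Phf19 (ENSMUSG00000026873.9, chr2:34893757-34914026, minus strand), which is known for expression in embryonic stem cells and tumours, was instead high in T8 and TUN, at 3.39, 4.33, 6.06 and 8.13 RPKM, a span of 2.40-fold. Mtf2 (ENSMUSG00000029267.17, chr5:108065674-108109004, plus strand), the paralog best known for recruiting PRC2 to CpG islands, spanned 1.31-fold, at 6.19, 6.10, 4.71 and 5.0 RPKM. A stretch of 6.93% of its exon length overlaps Tmed5 on the other strand, and reads of the 2 genes cannot be told apart there. Tmed5 held 1808 to 2361 reads per library over its whole length, and how reads in the shared stretch were counted is unstated.

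The 3 Polycomb-like genes together stood at 20.5, 18.0, 13.7 and 16.7 RPKM. Mtf2 gave a nearly even share of this sum, 29.9% to 34.3%. Phf1 gave 53.3%, 42.0%, 21.6% and 21.6% of it. Phf19 gave 16.6%, 24.1%, 44.1% and 48.5%, so the leading Polycomb-like gene was Phf1 in T14 and T10 and Phf19 in T8 and TUN. With principal transcript lengths Mtf2 led in T10, at 39.5% against 33.6% for Phf1, and the leaders in the other tumours were the same. The log2 ratio of Phf19 to Phf1 was -1.66, -0.79, 1.01 and 1.14. Its range of 2.80 log2 units is close to the 2.84 of the ratio of Ezh2 to Ezh1, and its mean of -0.07 ± 1.37 (SD, n = 4; exact sign-flip permutation p = 1, 1 adjusted) is smaller than its spread. Mtf2 lay between, with mean log2 ratios of 0.07 ± 0.72 to Phf19 and -0.003 ± 0.677 to Phf1 (exact sign-flip permutation p = 0.875 and 1, both 1 adjusted). The mean ratios to Phf1 turn sign with the length used, being 0.40 for Phf19 and 0.53 for Mtf2 with principal transcript lengths.

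The PRC2.2 genes moved little. Jarid2 (ENSMUSG00000038518.15, chr13:44729474-44921643, plus strand), for a DNA-binding protein that stimulates PRC2, stood at 8.19, 7.90, 6.56 and 6.93 RPKM, a span of 1.25-fold. Aebp2 (ENSMUSG00000030232.17, chr6:140622663-140678472, plus strand), a zinc finger cofactor, stood at 9.48, 9.72, 11.6 and 9.63 RPKM, a span of 1.22-fold and the narrowest of the 10 genes. Jarid2 was below Aebp2 by 0.45 ± 0.27 log2 units in 4 of 4 tumours (SD, n = 4; exact sign-flip permutation p = 0.125, 0.281 adjusted). With principal transcript lengths the difference was -1.15 ± 0.27. Their sum stayed between 16.6 and 18.1 RPKM.

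Set against each other, the summed RPKM of the PRC2.1 genes and of the PRC2.2 genes gave log2 ratios of 0.21, 0.03, -0.40 and 0.02. The mean of -0.04 ± 0.26 (SD, n = 4; exact sign-flip permutation p = 1, 1 adjusted) lay within its spread, and without T8 it was 0.09. The balance depends on how length is treated and on summing, since more genes enter the PRC2.1 sum than the PRC2.2 sum. Merged exons of Aebp2 are 2.64 times as long as its principal transcript, 9851 against 3727 bases, and with principal transcripts the ratio was -0.88 ± 0.24, with PRC2.2 genes higher in 4 of 4 tumours. The mean of log2 values over the subunits gave -0.67 ± 0.20, also below 0 in 4 of 4 tumours. In CPM, which is scaled to library size and not to length, it was -1.21 ± 0.18.

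**Figure D2:**
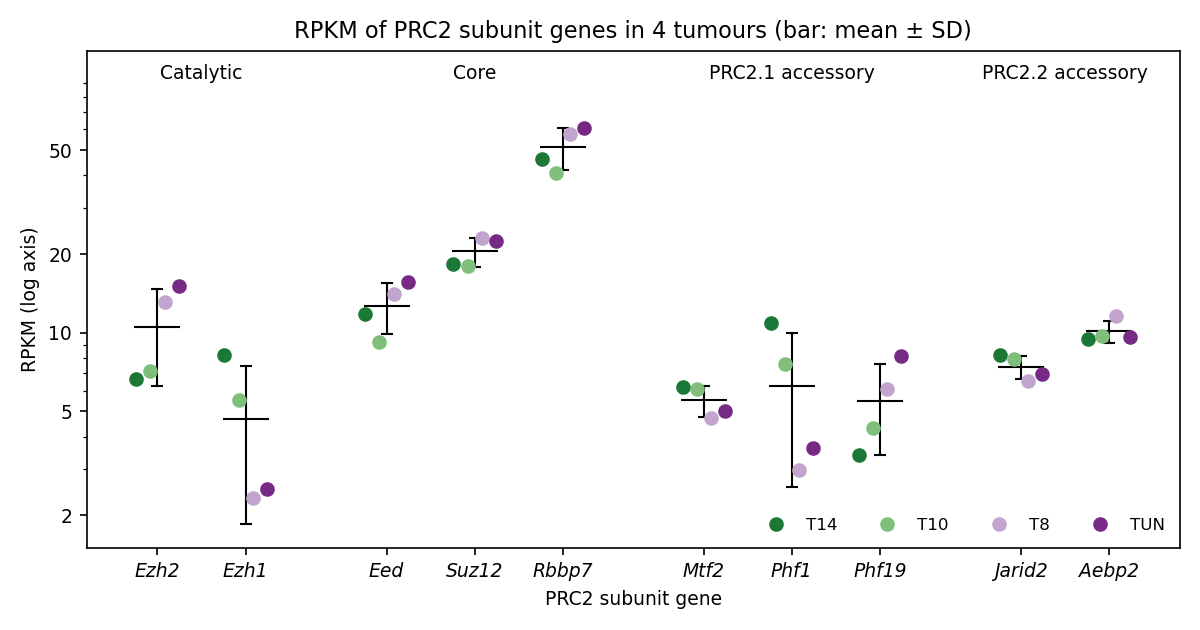
Each point is the RPKM of a PRC2 subunit gene in 1 of 4 tumours on a log axis, with the mean and SD as bars and the genes ordered by role. Rbbp7 and Suz12 lie above the other genes in every tumour, and Ezh1 and Phf1 are high in T14 and T10 where Ezh2 and Phf19 are low.

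By mean log2 RPKM the order ran from Rbbp7 and Suz12 through Eed, Aebp2, Ezh2, Jarid2, Phf1, Mtf2 and Phf19 to Ezh1. Rbbp7 exceeded Suz12 by 1.31 ± 0.10 log2 units and Suz12 exceeded Eed by 0.71 ± 0.19 (SD, n = 4), each in 4 of 4 tumours. From Eed downward no neighbouring pair differed by more than the SD of its paired difference, with Eed above Aebp2 by 0.30 ± 0.31 as the nearest to doing so. Ezh1 was 6th of the 10 in T14, 9th in T10 and 10th in T8 and TUN, whereas Ezh2 was 8th, 7th, 4th and 4th. With principal transcript lengths Rbbp7 stayed first at 66.5 ± 12.2 RPKM, and Aebp2 (26.7 ± 2.61 RPKM) and Ezh2 (25.1 ± 10.1 RPKM) came next, above Suz12 (23.1 ± 2.97 RPKM). Jarid2, Mtf2 and Phf19 held places 6, 8 and 9 under both lengths, and the other genes below Rbbp7 changed place.

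In CPM, Ezh2 spanned 2.26-fold, Ezh1 3.53-fold, Phf1 3.68-fold and Phf19 2.40-fold, so 4 of the 10 genes had a highest tumour over 2 times the lowest. The same was true of 29.1% of the 14266 genes tested. The median span of the members was 1.59-fold against 1.57-fold for all genes tested. Without T14 or without TUN, Phf19 fell under 2-fold and 3 remained. Of all genes tested, 3216 of 14425 and 3470 of 14446 then spanned over 2-fold. Ezh2, Eed, Suz12, Rbbp7 and Phf19 had T8 and TUN as their 2 highest tumours, as did 32.5% of genes tested. Ezh1, Phf1, Mtf2 and Jarid2 had T14 and T10 as their 2 highest, as did 33.0% of genes tested. Limited to spans over 2-fold, the members were Ezh2 and Phf19 for the first pattern, which held for 7.60% of genes tested, and Ezh1 and Phf1 for the second, which held for 15.9%. These pairs of tumours are a description of the libraries and no groups of the study. Aebp2 alone followed neither pattern, and with DESeq2 size factors or library totals it joined the first, which then held 6 members. The shares of all genes above are those with TMM scaling and are not matched to that count.

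The edgeR goodness of fit, which asks whether a gene varies between tumours more than genes of like abundance, called 0 of the 10 genes against 4.34% of the 14266 tested. The smallest p among the members was that of Ezh1, 0.0304 unadjusted and 0.417 after Benjamini-Hochberg adjustment over all genes, and Phf1 followed at 0.0969 and 0.946. The adjusted p of Ezh2 was 1. At an unadjusted p under 0.05 stood 1 of the 10 members and 1196 of the 14266 genes, and among dispersion outliers of DESeq2 there were 0 members and 78 genes in all. A p above the threshold does not show that these genes were steady.

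**Figure D3:**
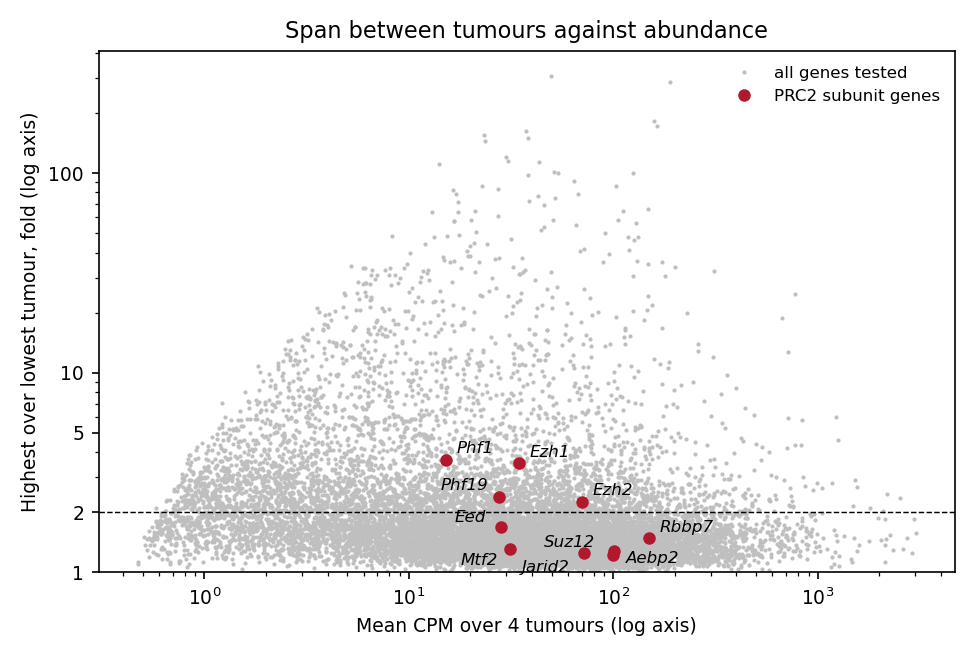
Each grey point is 1 of 14266 genes tested, with its mean CPM on the horizontal axis and its highest over its lowest tumour on the vertical axis, both on log axes. The red points are the PRC2 subunit genes, of which Phf1, Ezh1, Phf19 and Ezh2 lie above the dashed line at 2-fold.

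Genes of cell division were high in the tumours where Ezh2 was high. All 21 genes of a division list had T8 and TUN as their 2 highest tumours, against 32.5% of genes tested, and their summed CPM was 1637, 1827, 3285 and 3957. The list deviated from its 4-tumour mean by -0.61, -0.53, 0.43 and 0.70 log2 units, and Ezh2 by -0.56, -0.46, 0.41 and 0.62. Relative to the mean log2 RPKM of the list, Ezh2 stood at -1.16, -1.14, -1.24 and -1.30. That is a mean of -1.21 ± 0.07 (SD, n = 4; exact sign-flip permutation p = 0.125, 0.281 adjusted), while the SD of Ezh2 itself was 0.59 log2 units. The permutation test asks whether the mean level of Ezh2 differs from that of the list, not how closely Ezh2 followed it. The mean was -0.41 with principal transcript lengths and -0.44 in CPM, each with an SD of 0.07.

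The same quantity for each division gene against the other 20 had an SD of 0.06 to 0.40, and 1 of the 21, the replication helicase gene Mcm5, had a smaller SD than Ezh2. Phf19 relative to the list had an SD of 0.20 log2 units against 0.54 for the gene itself. The core genes varied more against the list than on their own, with an SD of 0.40 for Eed, 0.42 for Rbbp7 and 0.49 for Suz12. They deviated in the direction of the list in each tumour but by less than the list, between -0.43 and 0.33 log2 units. The most abundant genes of the list per length were Rrm2 (67.0 ± 35.1 RPKM) and Rrm1 (63.6 ± 22.2 RPKM), for the subunits of ribonucleotide reductase. In edgeR 0 of the 21 had an adjusted p under the threshold and 3 had an unadjusted one under it, and DESeq2 marked 0 as outliers. The part of division in the level of Ezh2 was not tested.

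Genes of mature brain cells were mostly high in T14 and T10, the high tumours of Ezh1 and Phf1. Of 15 neuron genes 14 had T14 and T10 as their 2 highest tumours, against 33.0% of genes tested, and their summed CPM was 5209, 4555, 1263 and 1179. Snap25, for a synaptic fusion protein, and Tubb3, a neuronal tubulin, were the most abundant per length, at 114 ± 117 and 77.7 ± 33.6 RPKM. Tubb3 did not share the pattern, at 111, 217, 77.6 and 175 CPM, with T10 and TUN highest, and did not pass the goodness of fit. Of the 15 genes, 13 passed it. Among them were Snap25, Syt1, Rbfox3, Stmn2, Syp, Gad1, Slc17a7, Slc17a6, Nefl, Nefm, Thy1 and Camk2a. DESeq2 marked 6 of the 15 as dispersion outliers, and 0 genes of the astrocyte and mature oligodendrocyte lists. Of 10 astrocyte genes 6 passed (Glul, Aldoc, Gfap, S100b, Gja1 and Aldh1l1) and 8 had T14 and T10 highest, with summed CPM of 8532, 5689, 2775 and 2476. Glul, for glutamine synthetase, and Aldoc, for a glycolytic aldolase, were the most abundant per length at 233 ± 160 and 218 ± 175 RPKM. Of 10 mature oligodendrocyte genes 7 passed (among them Mbp, Mobp, Mal, Mag, Mog and Ermn) and 8 had T14 and T10 highest, with summed CPM of 4142, 5493, 1343 and 1313. The myelin gene Mbp was among the most abundant of them per length at 146 ± 112 RPKM. No gene of these lists was at 0 in all tumours.

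In log2 units Ezh1 deviated by 1.03, 0.45, -0.79 and -0.69, and Phf1 by 0.99, 0.47, -0.87 and -0.59. The neuron list deviated by 1.64, 1.39, -1.31 and -1.73, the astrocyte list by 1.08, 0.55, -0.67 and -0.96, and the mature oligodendrocyte list by 0.60, 1.23, -0.89 and -0.94. Ezh1 and Phf1 were higher in T14 than in T10, as were the neuron and astrocyte lists and unlike the mature oligodendrocyte list. Both were lowest in T8, whereas all 3 lists were lowest in TUN. The part of these cells in the levels of Ezh1 and Phf1 was not tested.

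**Figure D4:**
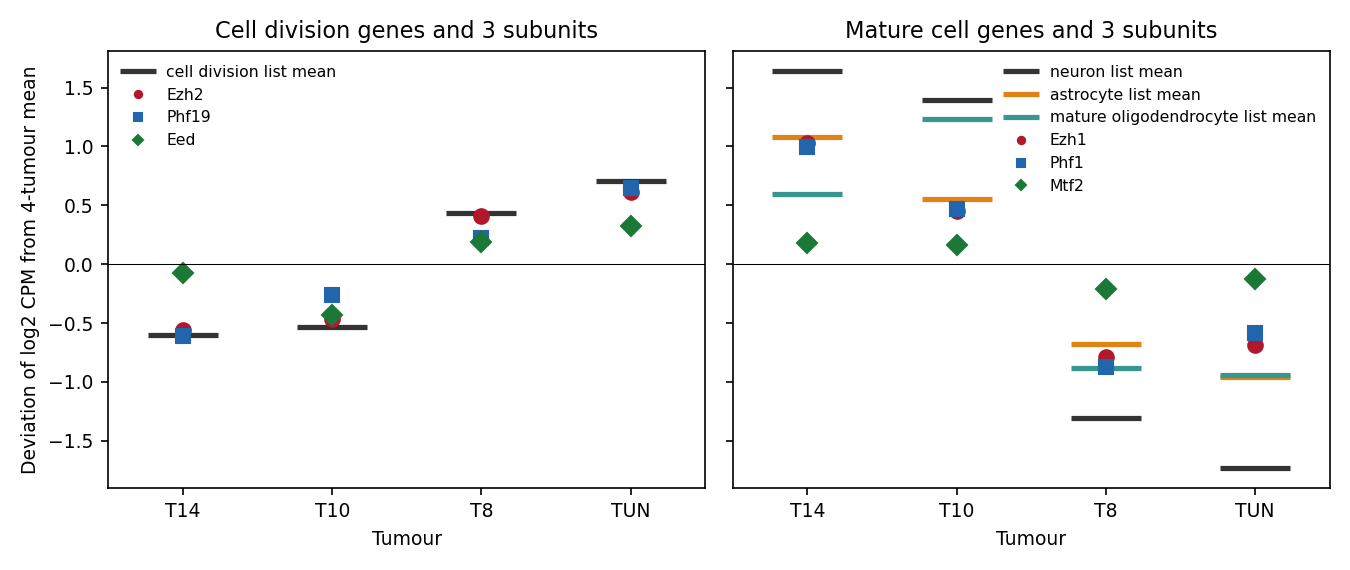
Deviation of log2 CPM from the 4-tumour mean, with horizontal dashes for the mean of each gene list and symbols for single subunit genes. Ezh2 lies within 0.1 log2 units of the division list in every tumour, and Ezh1 and Phf1 lie nearly on top of each other in the right panel.

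The tissue was also checked on lists for glial precursors and microglia. All 9 genes of oligodendrocyte precursors were above 1 CPM in the 4 tumours, led by Olig1 at 1394 ± 309 RPKM and Lhfpl3 at 381 ± 74.3 RPKM, with 0 of 9 past the goodness of fit in edgeR. Of the 9, 7 had T8 and TUN as their 2 highest tumours, as Ezh2 and Phf19 did, against 32.5% of genes tested. T14 and T10 were the 2 highest for 0 of the 9, against 33.0%. The summed CPM was 9712, 11369, 15373 and 12651. The part of these cells in the levels of the subunit genes was not tested. All 10 microglia genes were above 1 CPM, led by C1qa at 153 ± 34.9 RPKM and C1qb at 97.9 ± 29.0 RPKM, with 0 of 10 past it and summed CPM between 623 and 865. At an unadjusted p under 0.05 there were 0 genes of either list, and DESeq2 marked 0.

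Ranked by the root mean square difference of centred log2 CPM over the 4 tumours, the genes nearest to Ezh2 among 8822 others at mean CPM 20 or more included Mcm5 (0.04) and Pold1 (0.06). Mcm5 stood at 84.0, 94.9, 174 and 206 CPM, beside 44.5, 47.5, 87.2 and 101 CPM of Ezh2. Pold1 encodes the catalytic subunit of DNA polymerase delta. The genes nearest to Ezh1 were Lzts3 (0.03), Ccdc92 (0.07) and Zbtb7a (0.07). Lzts3 stood at 57.7, 38.6, 16.6 and 18.4 CPM, beside 61.3, 41.2, 17.3 and 18.7 CPM of Ezh1.

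Phf1, at 0.07 from Ezh1, would have been second on that list, with 1 of the 8822 genes nearer. Phf19 was 0.14 from Ezh2, with 140 genes nearer, and the core genes were farther, at 0.30 for Eed, 0.31 for Rbbp7 and 0.36 for Suz12. A likeness over 4 tumours describes these libraries only, since many genes share an order of 4 values.

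Of 12 genes linked to PRC2 or to the methylation of H3, 11 were tested and 0 passed the goodness of fit in edgeR, with 0 at an unadjusted p under 0.05 and 0 outliers in DESeq2. Rbbp4, the paralog of Rbbp7 in the complex, stood at 274, 272, 437 and 435 CPM, high in the same tumours as Ezh2. The PRC2.1 cofactor gene Epop spanned 2.90-fold, at 3.03, 5.82, 8.78 and 4.75 RPKM. Lcor and Lcorl, whose loci encode the PALI cofactors of PRC2.1, stood at 1.47 ± 0.28 and 3.86 ± 0.62 RPKM (SD, n = 4).

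Ezhip encodes an inhibitor of PRC2 that acts much as the K27M histone does. It had 0, 5, 5 and 0 reads, and a count of 0 allows up to 3 reads. The demethylase genes Kdm6a and Kdm6b, which remove the mark, stood at 7.84 ± 0.68 and 10.9 ± 1.21 RPKM and spanned 1.24-fold and 1.28-fold.

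Among genes for methyltransferases of lysine 36, a mark that hinders PRC2, Nsd2 stood at 11.9, 15.4, 18.6 and 20.7 RPKM and was highest in T8 and TUN. Nsd1 stood at 13.7 ± 2.86 RPKM, Setd2 at 12.1 ± 0.91, Ash1l at 9.42 ± 1.90 and Nsd3 at 6.24 ± 0.73 (SD, n = 4). Of the 12 genes, Rbbp4 and Nsd2 had T8 and TUN as their 2 highest tumours, as did 32.5% of genes tested. Lcor, Kdm6a, Nsd3 and Ash1l had T14 and T10, as did 33.0% of genes tested.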

How the data were processed

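PolyA RNA from 4 tumours was prepared with a TruSeq RNA kit and sequenced on a HiSeq2500, per the labels' protocols. The authors deposited raw read counts per gene. The submitters' processing notes name STAR, featureCounts and mm10 but no versions or options, and the kit does not mark strand. The annotation named with the table is GENCODE vM8. The column names match no sample title, so columns entered as unnumbered tumours of the group (0 columns left aside). The labels call them tumours and add nothing on animals, so p-values cover the spread between these samples, which may be partly technical.

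Libraries held 21664889 to 24369339 counts. Symbols matched 46451 of 46946 identifiers. Counts were scaled with TMM in edgeR 4.0.16 (R 4.3.3) to CPM and, with the merged exon length in the table, to RPKM. Ratios used log2(RPKM + 0.1) and two-sided exact sign-flip permutation tests over tumours, adjusted by Benjamini-Hochberg over 9 ratios. The edgeR goodness of fit used an intercept-only model at the trended dispersion, the default low-count filter and Benjamini-Hochberg adjustment over 14266 genes (threshold 0.05). The step was tested on simulated data. DESeq2 1.42.0 gave alternative scaling and dispersion outliers, and library totals, no filter, a pseudocount of 1, CPM, means of log2 values and leaving out each tumour were also tried. Deviations used log2 CPM with prior count 2. Copies were sought with BLAST+ 2.17.0 among GENCODE vM21 transcripts at 95% identity over 200 bases or more. Promoter sequences are from RefSeq (GRCm38.p6), and principal transcript lengths are those of the longest APPRIS principal transcript in vM21.

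The members and gene lists were chosen with earlier results of these data known. Named genes are the 10 members, the genes linked to PRC2, of each other list the 2 most abundant by RPKM and those past the goodness of fit, and the 3 nearest in pattern to Ezh2 and to Ezh1. A few genes that this rule names are not reported here.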

Additional observations from a re-analysis of the deposited data

Results flagged for a closer look

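Aebp2 had a value far from the others in T8, at 114 CPM against 93.4 in T14, 95.8 in T10 and 94.9 in TUN. Its gap to the nearest value was 0.884 of the whole range (Dixon's ratio, critical value 0.83 for 4 samples). The ratio was 0.861 with DESeq2 size factors and 0.664, under the critical value, with library totals alone. Chance gives such a value in about 1 of 20 groups, and 19 levels and ratios were examined.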

How the results depend on the processing

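With DESeq2 size factors, library totals alone or no low-count filter, the goodness of fit called 0 of the 10 members and 4 spanned over 2-fold, and leaving out any tumour gave 0 called and 3 to 4 over 2-fold. Of all genes tested, 4151 of 14266 spanned over 2-fold with DESeq2 size factors and 4201 with library totals. Without the filter it was 15330 of 25961. The goodness of fit called 608, 610 and 713 genes under these settings, in that order. Without T14, T10, T8 or TUN, 3216 of 14425, 3554 of 14343, 3380 of 14531 and 3470 of 14446 genes spanned over 2-fold. It called 431, 462, 454 and 426 of the genes tested there. Under both other scalings 6 members in place of 5 had T8 and TUN highest, Aebp2 being the added one, and 4 had T14 and T10 highest. The shares of all genes given for these patterns, 32.5% and 33.0%, hold for TMM scaling, so these counts have no matching share beside them. All 60 recomputed member levels moved by less than 1 SD. The mean ratios of Ezh2 to Ezh1, Eed to Suz12, Jarid2 to Aebp2, catalytic to core genes and Ezh2 to division genes kept their direction under every setting run. The others were near 0 in the main setting and did not. Of these, PRC2.1 to PRC2.2 turned sign only without T8. It was -1.21 without length correction, -0.88 with principal transcript lengths and -0.67 as the mean of log2 values. Leaving out a tumour gave -0.12 to 0.09 for PRC2.1 to PRC2.2 (0.0858 without T8), -0.19 to 0.32 for Mtf2 to Phf19, -0.22 to 0.27 for Mtf2 to Phf1 and -0.48 to 0.45 for Phf19 to Phf1. Without length correction Mtf2 to Phf1 was 1.22 and Phf19 to Phf1 was 0.97, and with principal transcript lengths, chosen after the data were seen, they were 0.53 and 0.40. No paired analysis was possible because the labels give a single group. Without length correction Eed to Suz12 was -1.86.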
